A study of Olea europaea with 36 samples.

Results

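The contigs described here are 150 olive (Olea europaea) transcripts that gave a higher array signal in shoot tips of the cultivar Picual than in those of the cultivar Arbequina. They were followed into the offspring of these cultivars. A contig is a transcript sequence assembled from reads, and the array carried 37449 of them. Each contig received a score from the log2 of its intensities, the lowest of the 3 active Picual arrays minus the highest of the 3 Arbequina arrays. The 150 contigs with the largest scores were taken, apart from Contig_35467, a putative olive ortholog of the flowering regulator SVP, which ranked 16 with a score of 4.06 and was set aside. The scores chose the contigs, so the distance between active Picual and Arbequina is a description and carries no test.

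The material was shoot tips from field-grown trees, with 3 arrays per group and 36 arrays in all. The study dates its harvest of actively growing shoots to the end of spring. It does not describe dormant Picual, Complex branching or Simple branching. Picual dormant came from dormant meristems of the same cultivar that gave Picual active. Chiquitita is a cultivar selected from a cross of Picual and Arbequina. Pooled seedlings of a cross of the same cultivars formed SILe (short internodes), LILe (long internodes), SmaD (small trunk diameter) and LarD (large trunk diameter). Chiquitita was in turn crossed with the cultivar Arbosana, and the groups ChiCa (trees with the habit of Chiquitita), Complex branching and Simple branching were pools of that progeny. Arbosana and Arbequina were sampled as cultivars. Each pool mixed tissue of several seedlings, so its level is an average over trees, and the level of no single seedling was measured. The 3 arrays of a group are separate shoot samples of the same cultivar or pool, and p-values therefore measure the spread between shoot samples only. The extra label of SmaD replicates 2 and 3 names short internodes, and they were used here as SmaD, as titled.

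A seedling receives 1 allele of each nuclear gene from each parent. A transcript found in only 1 parent can therefore reach the seedlings at the level of that parent, at an intermediate level, or not at all, depending on which alleles that parent carried and passed on. Picual is known as a vigorous tree, whereas Arbequina and Arbosana are known as compact cultivars planted in hedgerows, which is why shoot tip transcripts of their crosses are of interest to breeders. The signal of a contig is the brightness of labelled RNA bound to its designed probes. Less transcript and a transcript that binds its probe less well cannot be told apart by such a signal, and neither can fewer cells of a type and less RNA per cell. The contigs carry no gene names in the files used here, none of the 150 matched the olive gene table, and none is among the 14 contigs that the study named. They are therefore given by contig number and with no function.

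The deposited intensities ran from 6.74 to 62499 on a linear scale, and the median log2 intensity of an array lay between 9.25 and 9.64. Replicate arrays correlated over all contigs with r between 0.947 and 0.992 in 34 pairs, and SILe replicate 3 stood apart with r of 0.84 against both of its replicates. That array was at least 4-fold below both for 11.7% of all contigs and 6.67% of the 150. It was at least 4-fold above both for 2.97% and 1.33%. The 5 calls with SILe that are named by rule below were kept without it. A pair of further arrays departed from their labels in a matching way. For 12 of the 150 contigs, Chiquitita replicate 1 was at least 4-fold above both other Chiquitita arrays, which was the case for 0.243% of all contigs. For 10 of the 150, Simple branching replicate 3 was at least 4-fold below both other arrays of its pool, against 0.235% of all contigs. The 10 contigs of the Simple branching list were all on the Chiquitita list (100% of the shorter list and 83.3% of the longer). Over all 37449 contigs, 91 were at least 4-fold above in Chiquitita replicate 1 and 88 at least 4-fold below in Simple branching replicate 3, with 68 in common, and 105 and 257 moved in the opposite directions, with 69 in common. In no contig did both arrays depart in the same direction. Chiquitita replicate 1 correlated at 0.986 and 0.987 with Simple branching replicates 1 and 2, against 0.981 and 0.954 with the other Chiquitita arrays. Simple branching replicate 3 correlated at 0.987 and 0.977 with Chiquitita replicates 2 and 3, against 0.968 and 0.962 with the other arrays of its own pool. Both arrays were kept under their labels, and results that rest on them are given below also without them, an alternative chosen after seeing the data.

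Contig_31969, with the second largest score, shows the departure in full. Its intensities were 3637, 16.28 and 32.26 in Chiquitita replicates 1, 2 and 3, and 3795, 1962 and 34.25 in the Simple branching arrays. Every other array lay either between 1815 and 5988 or, in Arbequina, between 16.7 and 29.86. Contig_14817 had 208.8, 30.09 and 14.36 in Chiquitita and 114.7, 235.4 and 14.36 in Simple branching. Contig_23377 had 4265, 723 and 567.8 in Chiquitita and 3684, 3445 and 579.5 in Simple branching. Contig_14817 and Contig_23377 are named here after their values were seen. In each of these 3 contigs Chiquitita replicate 1 fell within the range of the other 2 Simple branching arrays or near it, and Simple branching replicate 3 fell near the other 2 Chiquitita arrays.

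In active Picual the 150 contigs were ordinary in brightness, with a median log2 intensity of 9.43 against 9.53 for all contigs. In Arbequina their median was 6.19 against 9.50 for all contigs. In active Picual 8 of them lay in the lowest 25% of contigs, against 101 in Arbequina. Scores ranged from 8.22, a 299-fold gap between the nearest arrays, down to 1.60, a 3.04-fold gap, with a median of 2.23 (4.69-fold). A score above 4 was held by 15 contigs, above 3 by 40 and above 2 by 94. Just inside the limit were Contig_44247 (1.6031) and Contig_56337 (1.6024), and just outside it Contig_756 (1.6004) and Contig_56587 (1.5985). All 150 passed a limma test of active Picual against Arbequina (2-fold or more, adjusted p under 0.05), as did 2.71% of all contigs in that direction, which the choice itself brings about.

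Contig_19725 had the largest score. It gave 8788, 8006 and 6766 in active Picual, against 20.0, 22.65 and 16.35 in Arbequina. Contig_27690 gave 1968, 2813 and 2722 in active Picual and 43.39, 44.02 and 43.32 in Arbequina, so the Arbequina arrays were almost equal. Contig_46397 gave 12100, 11840 and 8262 in active Picual and 172.1, 210.4 and 222.2 in Arbequina. Contig_38711 gave 2626, 2276 and 1322 in active Picual and 54.63, 23.04 and 55.42 in Arbequina. In every other group its arrays lay between 459.6 (SILe) and 3825 (Complex branching), so that Arbequina alone was low. Contig_34653 was low in Chiquitita and Arbosana as well as in Arbequina, but not in the seedling pools of the Picual by Arbequina cross. It gave 713.1, 447.5 and 636.4 in dormant Picual and 830.5, 1082 and 672.1 in active Picual, but 13.91, 15.84 and 32.57 in Chiquitita, 16.05, 13.49 and 17.83 in Arbosana and 15.03, 12.32 and 14.38 in Arbequina. Its LarD arrays split, with 44.82, 413.3 and 42.38. On the log2 scale from Arbequina (0) to active Picual (1), its mean lay at 0.915 in LILe, 0.755 in SmaD and 0.652 in SILe. It lay at 0.043 in ChiCa, 0.155 in Complex branching and 0.129 in Simple branching.

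To compare the groups on 1 scale, the mean log2 level of each contig was placed between Arbequina, set at 0, and active Picual, set at 1. A position above 0.75 was called the Picual side and one below 0.25 the Arbequina side. Because the contigs were chosen for high active Picual and low Arbequina arrays, other groups are drawn inward by the choice itself, and positions are given with no test. The 4 pools of the Picual by Arbequina cross had median positions of 0.67 (SILe), 0.78 (LILe), 0.76 (SmaD) and 0.72 (LarD). The medians of their single arrays were 0.726, 0.585 and 0.702 in SILe, 0.856, 0.75 and 0.751 in LILe, 0.726, 0.788 and 0.758 in SmaD and 0.736, 0.748 and 0.724 in LarD. Those of SILe and LarD lay below every LILe array, and those of SmaD overlapped LILe and LarD. Dormant Picual stood at 0.80, with array medians of 0.795, 0.830 and 0.771. Chiquitita stood at 0.65, with array medians of 0.716, 0.700 and 0.684, and at 0.69 without replicate 1. ChiCa, Complex branching and Simple branching stood at 0.61, 0.59 and 0.61, and Simple branching at 0.61 also without replicate 3. Arbosana was lowest, at 0.20, with array medians of 0.190, 0.194 and 0.227, below every array of every other group outside Arbequina.

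**Figure D1:**
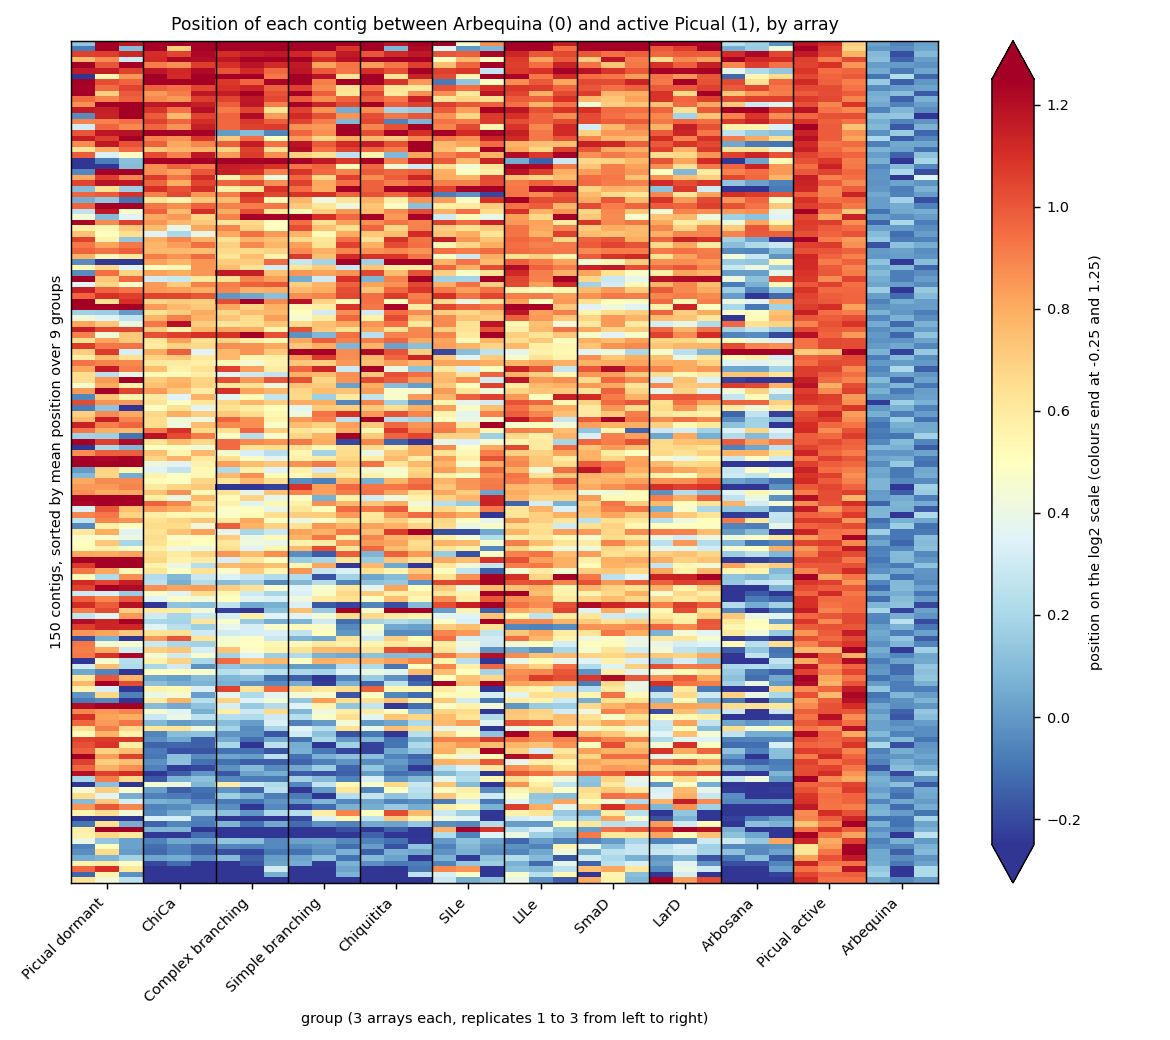
Position of each of the 150 contigs (rows, sorted by mean position over 9 groups) on each of the 36 arrays (columns, 3 per group, replicates 1 to 3 from left to right), where 0 is the Arbequina mean and 1 the active Picual mean on the log2 scale. Arbosana is mostly blue (median position 0.20), the pools of the Picual by Arbequina cross are mostly orange, and a block at the bottom is blue in Chiquitita, ChiCa, Complex branching, Simple branching and Arbosana together.

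The medians hide different shapes. In Chiquitita 67 contigs were on the Picual side, 38 on the Arbequina side and 45 between, and the 34 contigs in the bins from −0.25 to 0.25 formed a separate lower hump with only 11 contigs between 0.25 and 0.5. Without replicate 1 these counts were 64, 43 and 43. Each seedling pool mixed several seedlings and is not like for like with the single cultivar Chiquitita. The pools of the Picual by Arbequina cross held fewer contigs on the Arbequina side, 25 in SILe, 16 in LILe, 6 in SmaD and 14 in LarD. SmaD had no contig below the Arbequina mean. Arbosana showed the reverse, with 26 contigs on the Picual side and 84 on the Arbequina side, of which 48 were below the Arbequina mean. ChiCa, Complex branching and Simple branching had 51, 54 and 55 contigs on the Picual side and 35, 40 and 39 on the Arbequina side. Every array exceeded every Arbequina array for 117 contigs in SILe, 136 in LILe, 140 in SmaD and 135 in LarD. The number was 104 in Chiquitita and 69 in Arbosana. The rule chose low Arbequina arrays and so favours this separation, and these counts were not set beside a share of all contigs.

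**Figure D2:**
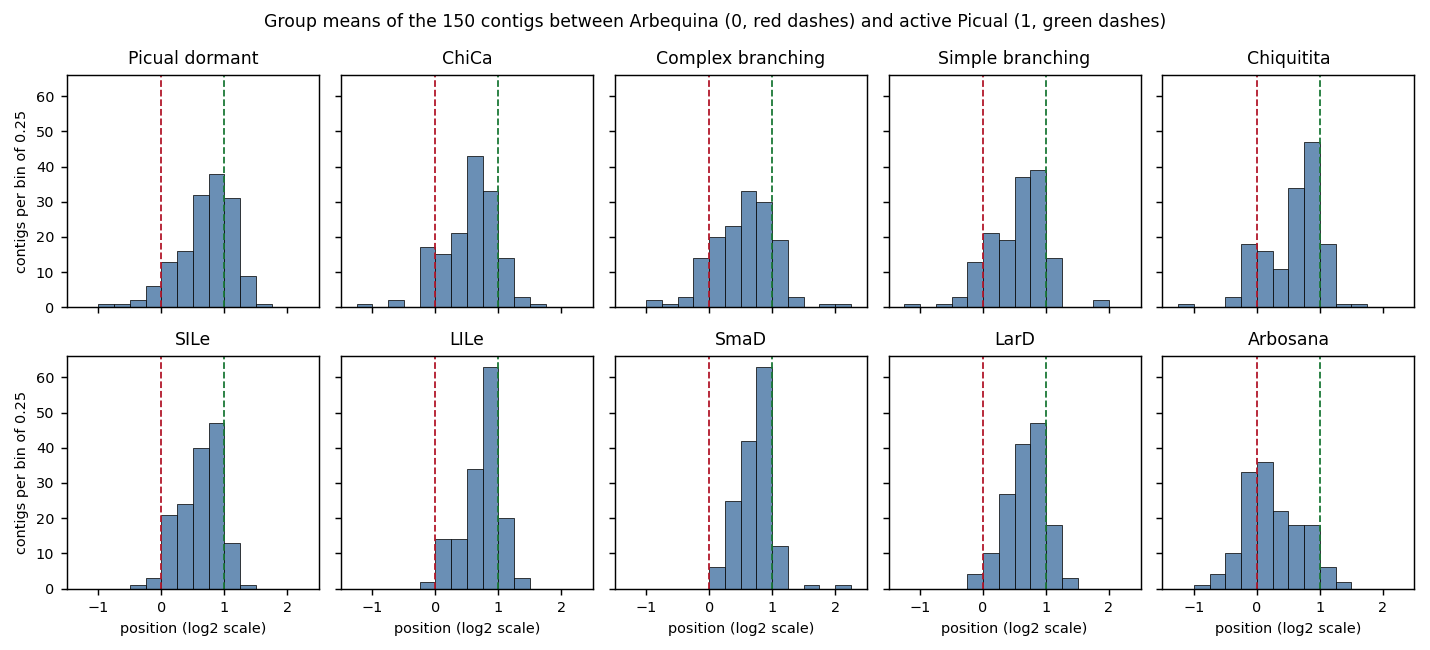
Number of contigs (vertical axis) in bins of 0.25 of position (horizontal axis, log2 scale) for the mean of each of 10 groups, with dashes at Arbequina (0) and active Picual (1). LILe and SmaD peak between 0.75 and 1, Chiquitita has a second hump of 34 contigs between −0.25 and 0.25, and Arbosana peaks around 0.

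Over the 9 groups other than Picual and Arbequina, 3 contigs were on the Picual side in all 9 (Contig_41343, Contig_20379 and Contig_39562) and 2 were on the Arbequina side in all 9 (Contig_41378 and Contig_41446). Contig_20379 gave 1986, 2895 and 3496 in Chiquitita, 2849, 4133 and 2261 in Arbosana and 3403, 2308 and 948.7 in active Picual, against 90.97, 35.49 and 91.93 in Arbequina. Contig_41343 gave 388.5, 648.5 and 454.9 in Arbosana and 625.0, 705.6 and 362.9 in active Picual, against 33.2, 32.68 and 30.81 in Arbequina. For both contigs Arbequina was the only group that stood low. At the other end, Contig_41446 gave 94.03, 99.58 and 119.8 in dormant Picual and 394.3, 558.0 and 747.6 in active Picual, against 92.38, 80.99 and 83.11 in Arbequina. Its arrays in the 9 groups lay between 53.44 and 153.3, so that active Picual alone was high. Contig_41378 gave 54.93, 58.36 and 48.5 in dormant Picual and 143.1, 101.3 and 102.6 in active Picual, against 23.72, 18.8 and 22.39 in Arbequina.

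The remaining contigs took sides group by group. No group was on the Arbequina side for 49 contigs (32.7%), or for 42 without the pair of doubted arrays. Exactly 1 group was on that side for 44 contigs, and in 33 of these it was Arbosana. In 81 contigs at least 1 group was on each side, and in 16 contigs none of the 9 group means lay between the sides. Contig_50770 is one of these 16 and differed from the rest in Arbosana only. It gave 735.4, 572.9 and 747.7 in Chiquitita, 34.9, 24.01 and 17.46 in Arbosana and 1289, 761.6 and 514.7 in active Picual, against 20.6, 24.58 and 21.17 in Arbequina. Contig_16067 was on the Arbequina side only in SILe, at 230.1, 348.3 and 692.1, while its active Picual arrays gave 2312, 1765 and 1535 and its Arbequina arrays 361.2, 202.9 and 265.8. Contig_50770 and Contig_16067 are named here after their values were seen.

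The differences among groups were then tested with limma on the 9 arrays of 3 related groups, and a call required a change of 2-fold or more with an adjusted p (over all contigs) under 0.05. The tests within and among the progeny do not use the Picual and Arbequina arrays that chose the contigs. The contigs were chosen to differ between parents of these groups, however, so the choice itself can favour calls. All tests with Chiquitita share its 3 arrays. Probes were not set against background, and a difference from a group near the lower end of the scale describes the deposited intensities only.

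SILe and LILe differed in 1 of the 150 contigs, Contig_22706, with the lower level in SILe. It gave 37.97, 46.45 and 21.77 in SILe, against 2350, 1888 and 3158 in LILe. Apart from SILe only Arbequina was low, with 62.68, 39.46 and 54.61, and arrays of all other groups lay between 640.5 and 5428. The fall was −6.16 ± 0.37 on the log2 scale (SE, adjusted p = 0.00182), and lower calls in SILe made up 0.00534% of all contigs. Contig_59827 ran the other way, at 1036, 1246 and 735.6 in SILe, against 33.52, 31.27 and 36.85 in LILe, and the LILe arrays lay within the range of the Arbequina arrays (44.75, 58.55 and 28.47). Its difference of 4.86 did not pass (adjusted p = 0.327) in the fit that included the split Chiquitita arrays, and it passed without Chiquitita replicate 1 (adjusted p = 0.00655). Without SILe replicate 3, which stood apart, 2 contigs were called. The 150 contigs had a median SILe minus LILe difference of −0.29, against −0.02 over all contigs.

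SmaD and LarD differed in 1 contig, Contig_26788, which rose in SmaD. It gave 512.6, 403.7 and 408.7 in SmaD, against 45.97, 74.57 and 70.36 in LarD. Its level in SmaD was near that of active Picual (590.7, 505.7 and 581.3), whereas LarD was closer to Arbequina (23.58, 32.68 and 17.8). The difference was 2.82 ± 0.30 (SE, limma adjusted p = 0.0236), and higher calls in SmaD made up 0.00534% of all contigs. The difference stayed between 2.60 and 2.95 when any 1 array of SmaD or LarD was left out. The call was lost in each of these fits (adjusted p between 0.126 and 0.152) except that without LarD replicate 2 (adjusted p = 0.0391), and it held without Chiquitita replicate 1 (adjusted p = 0.0395). With SmaD replicate 1 alone, which was then assumed to vary like the other groups, the difference was 3.04 and not called. The median difference was 0.15 over the 150 contigs and 0.03 over all contigs.

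**Figure D3:**
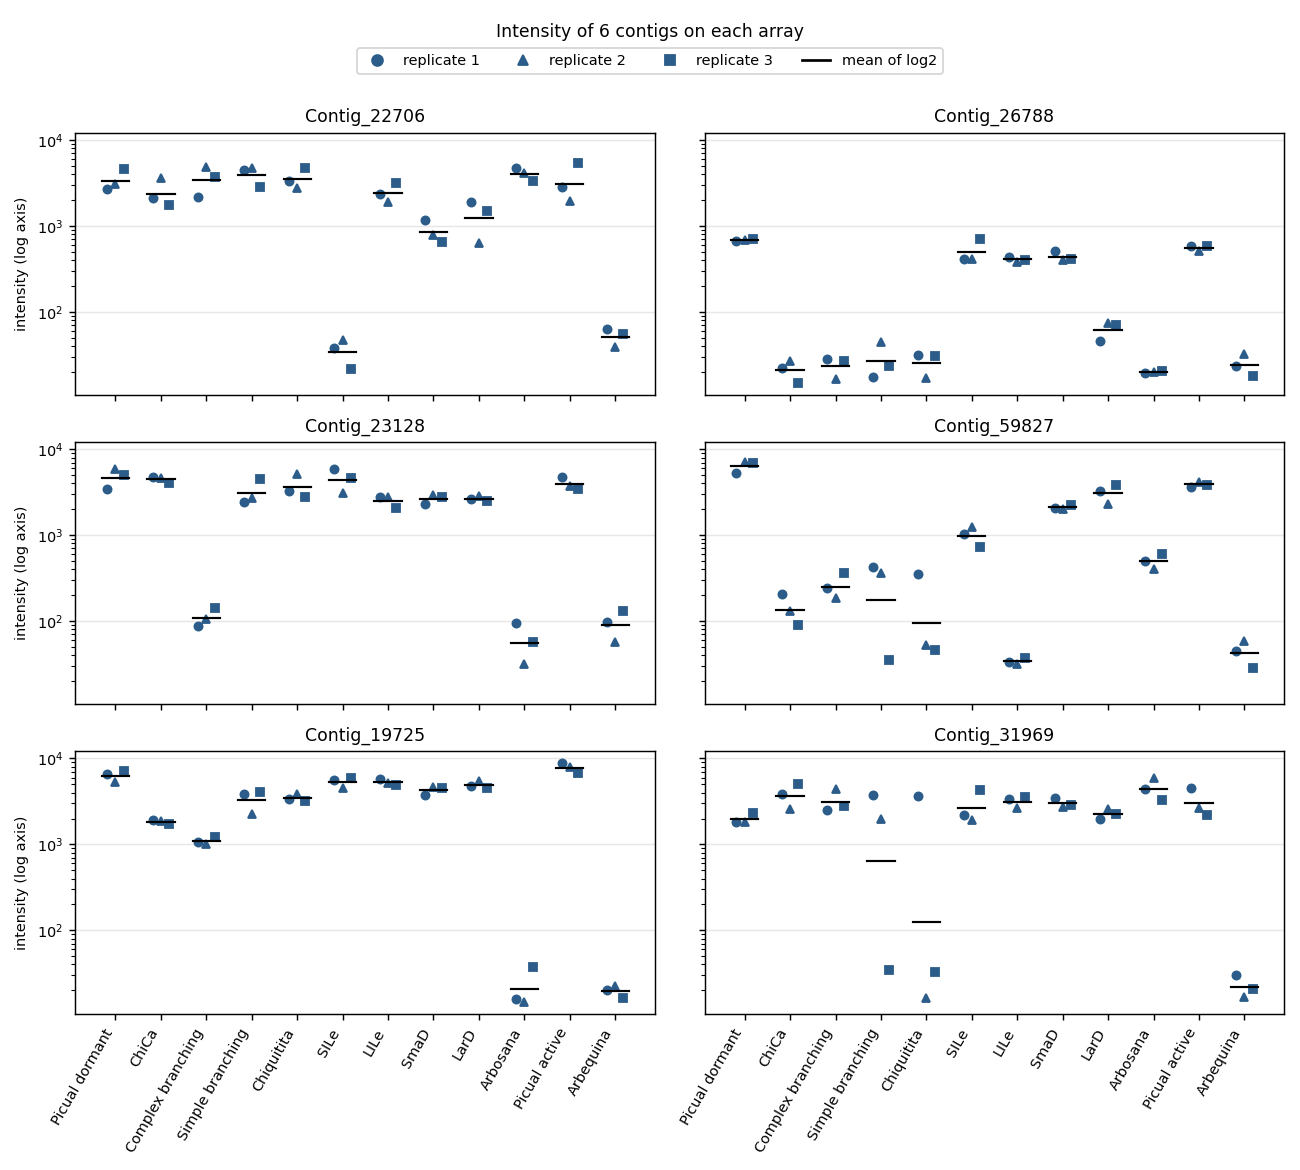
Intensity on a log axis of 6 contigs on each of the 36 arrays (symbols mark replicates 1 to 3, bars the mean of the log2 values) in the 12 groups. Contig_22706 is low in SILe and Arbequina, Contig_23128 in Complex branching, Arbosana and Arbequina, and Contig_31969 in Arbequina, in 2 of the 3 Chiquitita arrays and in Simple branching replicate 3.

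Chiquitita was next set against each seedling pool of the Picual by Arbequina cross. It was called lower than LarD in 24 contigs (16% of the 150, against 1.48% of all contigs) and higher in 13 (8.67%, against 4.66%). It was called lower than SmaD in 16 contigs (10.7%, against 0.438%) and higher in 1 (0.667%, against 0.419%, which is close to it). It was called lower than SILe in 6 (4%, against 0.0721%) and higher in 2 (1.33%, against 0.00534%), and lower than LILe in 4 (2.67%, against 0.032%), with none higher. Over the 150 contigs the median differences of Chiquitita from SILe, LILe, SmaD and LarD were small, at −0.05, −0.27, −0.12 and −0.05, beside 0.00, 0.01, 0.04 and 0.05 over all contigs.

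These counts moved with single arrays. Without Chiquitita replicate 1 there were 36 calls in place of 17 against SmaD (7 higher and 29 lower), 42 in place of 37 against LarD, 8 and again 8 against SILe, of which 5 were shared, and 7 in place of 4 against LILe. Calls over all contigs in those fits were 2.77% against SmaD, 6.24% against LarD, 0.134% against SILe and 0.136% against LILe. The counts that follow are given without a share of all contigs. Against LarD the calls were 18 without Chiquitita replicate 2, 23 without LarD replicate 1 and 17 without LarD replicate 3. Against SmaD they were 11 without Chiquitita replicate 2 and 4 with SmaD replicate 1 alone. Against SILe they were 3 without Chiquitita replicate 2 or replicate 3 and 5 without SILe replicate 1. Against LILe there were 0 calls without Chiquitita replicate 2 or 3 or any 1 LILe array. In that comparison the deviations of replicates of equal number were positively correlated. With the replicate number as a block, 2 contigs were called against LILe, 1 higher and 1 lower.

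Among the contigs lower in Chiquitita were several that the seedling pools carried near the active Picual level. Contig_50471 gave 48.89, 52.28 and 32.04 in Chiquitita, against 848.1, 876.5 and 1701 in SILe, 773.3, 789.8 and 535.5 in LILe, 786.1, 464.6 and 724.0 in SmaD and 703.1, 901.9 and 831.9 in LarD. Active Picual gave 967.5, 906.8 and 477.3 and Arbequina 27.91, 44.53 and 29.35. The difference was −4.64 ± 0.36 from SILe (SE, limma adjusted p = 0.00522) and −3.99 ± 0.36 from LILe (adjusted p = 0.0202, or 0.127 with the replicate block). The call against SILe was lost with only the 2 groups compared (adjusted p = 0.0663). Against LILe, Contig_50471 was not called without Chiquitita replicate 2 or 3 or any 1 LILe array (adjusted p between 0.0933 and 0.161). In ChiCa, Complex branching, Simple branching and Arbosana its arrays lay between 27.61 and 82.28, as low as in Chiquitita. Contig_3118, named after its values were seen, divided the groups in the same way, with 43.82, 33.59 and 59.78 in Chiquitita and 54.58 to 76.66 in Arbosana, against 288.5 to 1296 in the 4 seedling pools.

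Contig_61057 gave 32.29, 36.83 and 26.93 in Chiquitita, against 894.1, 1125 and 653.7 in LarD (−4.78 ± 0.25, limma adjusted p = 7.18e-05) and 542.7, 498.1 and 1106 in SILe (−4.40 ± 0.38, adjusted p = 0.00709). In LILe it was intermediate, at 139.2, 252.6 and 233.0. Contig_61330 gave 63.22, 46.74 and 48.86 in Chiquitita, against 948.2, 978.9 and 1348 in SmaD (−4.36 ± 0.25, adjusted p = 8.05e-05). LILe and LarD were as high as SmaD, at 660.7 to 1104, but SILe gave 81.2, 105.4 and 30.69, so the low level also occurred in 1 of the 4 seedling pools. Contig_26788 gave 31.7, 17.1 and 30.69 in Chiquitita, against 441.0, 381.9 and 402.1 in LILe (−4.00 ± 0.34, adjusted p = 0.0184). The call for Contig_61057 against SILe was lost without Chiquitita replicate 2 or 3 (adjusted p = 0.0601 and 0.0524), and that for Contig_26788 without Chiquitita replicate 2 or 3 or any 1 LILe array (adjusted p between 0.079 and 0.161).

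Contig_59827 was also lower in Chiquitita. It gave 351.0, 51.99 and 46.22 in Chiquitita, against 2089, 2040 and 2242 in SmaD (−4.49 ± 0.64, limma adjusted p = 0.0143) and 3292, 2295 and 3840 in LarD (−5.02 ± 0.64, adjusted p = 0.00482). Without Chiquitita replicate 1 the difference was −5.44 from SmaD and −5.97 from LarD. Against SmaD it was no longer called without Chiquitita replicate 2 or 3 or SmaD replicate 1 or 3 (adjusted p between 0.0574 and 0.0818). Active Picual gave 3685, 4163 and 3884, and Arbosana was in the middle of the scale, at 500.6, 407.1 and 600.2. Without Chiquitita replicate 1, the largest called fall from each seedling pool was in Contig_31969. It was −6.85 from SILe, −7.10 from LILe, −7.04 from SmaD and −6.63 from LarD (limma adjusted p between 2.6e-05 and 0.00192). With that array kept, Contig_31969 was called against no seedling pool.

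Fewer contigs stood higher in Chiquitita. Contig_22706 gave 3325, 2786 and 4718 in Chiquitita, against 37.97, 46.45 and 21.77 in SILe, a rise of 6.71 ± 0.37 (limma adjusted p = 0.000869). Contig_60697 gave 129.6, 265.8 and 411.5 in Chiquitita, against 16.59, 16.69 and 27.43 in SILe (3.62 ± 0.43, adjusted p = 0.0338). That call was lost without Chiquitita replicate 2 or 3 or SILe replicate 1 or 2 (adjusted p between 0.0878 and 0.217). Contig_62553 gave 314.8, 361.1 and 685.6 in Chiquitita, against 29.53, 49.41 and 105.9 in SmaD (2.99 ± 0.46, adjusted p = 0.021), and left-out arrays took its adjusted p to between 0.051 and 0.0779 in 4 cases. Against LarD, Contig_38690 gave 1060, 774.1 and 502.6 in Chiquitita and 96.29, 179.5 and 137.2 in LarD (2.48 ± 0.32, adjusted p = 0.00486). Contig_60820 gave 182.5, 565.1 and 625.2 in Chiquitita and 103.7, 64.28 and 52.09 in LarD (2.51 ± 0.50, adjusted p = 0.0194, lost without Chiquitita replicate 2 or LarD replicate 3 at 0.0891 and 0.0964).

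For 38 contigs Chiquitita was on the Arbequina side, and in 22 of them none of the 4 seedling pools was there. Without Chiquitita replicate 1 these numbers were 43 and 27. A pool mixes several seedlings, so its side is not like for like with that of Chiquitita. The 4 pools were all on the Picual side for 25 contigs, all on the Arbequina side for 3 and all between for 13. The lowest positions of Chiquitita belonged to Contig_31264, Contig_14314 and Contig_20027, in which it lay below Arbequina. Contig_31264 gave 43.36, 26.48 and 98.46 in Chiquitita and 35.29, 67.33 and 76.01 in Arbosana, but 1443, 736.1 and 965.4 in LarD, 1081, 852.7 and 864.3 in active Picual and 238.3, 209.3 and 223.3 in Arbequina. Its arrays in ChiCa, Complex branching and Simple branching lay between 32.07 and 98.89, all below those of Arbequina. The highest positions of Chiquitita belonged to Contig_19727, Contig_23123 and Contig_45988. Contig_23123 gave 211.8, 189.7 and 323.9 in Chiquitita, above its 136.5, 105.1 and 131.0 in active Picual.

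**Figure D4:**
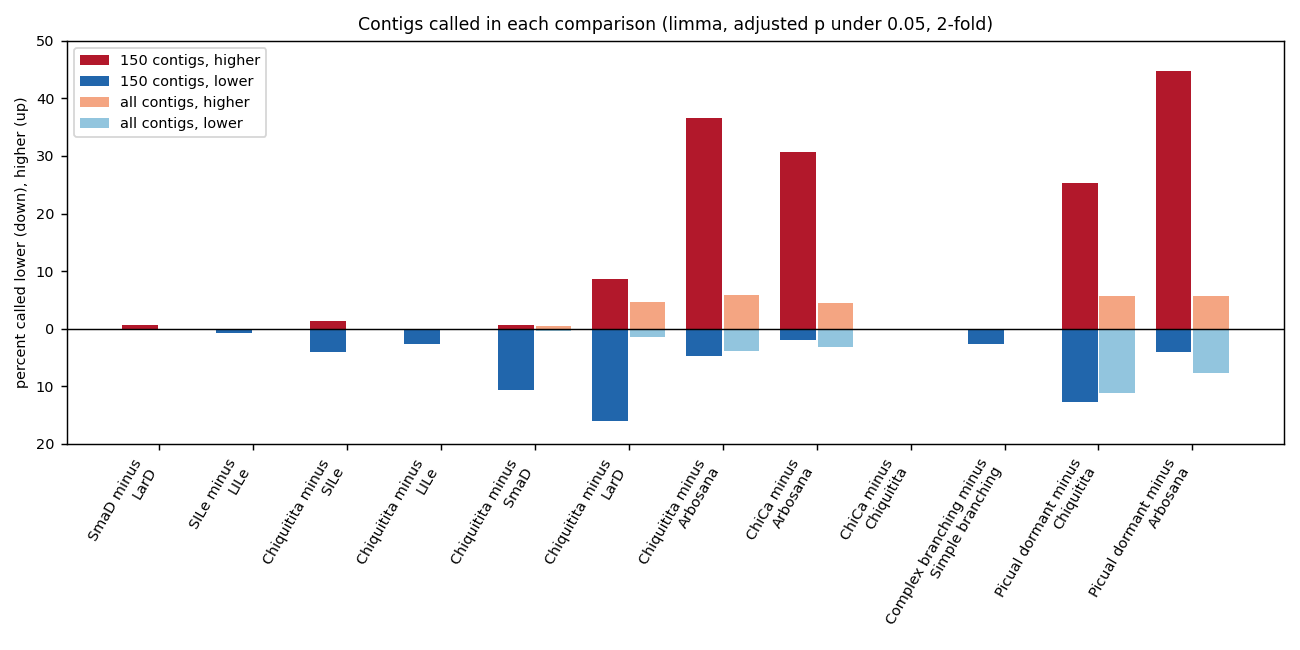
Percent of the 150 contigs (dark bars) and of all 37449 contigs (pale bars) called higher (up, red) or lower (down, blue) in each of 12 comparisons, by limma with the same limits as in the text. The bars of the 150 contigs are tallest for dormant Picual over Arbosana (44.7%, against 5.76% of all contigs) and for Chiquitita over Arbosana (36.7%, against 5.78%). Dormant Picual is of the same cultivar as the active arrays that chose the contigs, and Chiquitita is an offspring of that cultivar.

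Arbosana, the other parent of the second cross, shared the low level of Arbequina in many contigs. Chiquitita was called higher than Arbosana in 55 contigs (36.7%, against 5.78% of all contigs) and lower in 7 (4.67%, against 3.95%, which is close to it). ChiCa was called higher than Arbosana in 46 (30.7%, against 4.44%) and lower in 3 (2%, against 3.17%). Chiquitita descends from Picual, and ChiCa from Chiquitita, so the choice of contigs high in Picual itself favours higher calls over Arbosana. The median difference over the 150 contigs was 0.65 for Chiquitita and 0.53 for ChiCa, beside 0.09 and 0.07 over all contigs. Without Chiquitita replicate 1 the calls were 54 higher and 12 lower for Chiquitita (8.17% of all contigs called in either direction) and 52 higher and 5 lower for ChiCa (8.32% of all contigs). The total of 49 for ChiCa fell to 25 without ChiCa replicate 1.

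Contig_19725 gave 3355, 3856 and 3230 in Chiquitita, 1924, 1894 and 1722 in ChiCa and 15.89, 14.73 and 37.55 in Arbosana. Chiquitita was above Arbosana by 7.39 ± 0.34 on the log2 scale (limma adjusted p = 1.54e-05), and ChiCa was above it by 6.48 ± 0.34 (adjusted p = 2.98e-05). The pools of the cross differed in level, with 1063, 1007 and 1232 in Complex branching and 3822, 2239 and 4057 in Simple branching, while the seedling pools of the Picual by Arbequina cross lay between 3757 and 5981. Contig_19727 gave 11370, 743 and 4397 in Chiquitita, 4411, 1537 and 2254 in ChiCa and 38.38, 30.24 and 17.02 in Arbosana. It was higher by 6.95 ± 0.82 in Chiquitita (adjusted p = 0.00125) and by 6.52 ± 0.82 in ChiCa (adjusted p = 0.0024). Its replicates disagreed widely, down to 27.68, 5527 and 714 in dormant Picual, and its difference between Chiquitita and Arbosana was 6.06 without Chiquitita replicate 1 and 8.03 without Chiquitita replicate 2.

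Contigs that were lower than in Arbosana were few. Without Chiquitita replicate 1 the largest called fall of Chiquitita was in Contig_31969 (−7.58, limma adjusted p = 2.33e-05), which was not called with that array kept. Contig_27556 gave 401.7, 57.15 and 52.65 in Chiquitita, against 1432, 2337 and 729.6 in Arbosana (−3.66 ± 0.72, limma adjusted p = 0.0121, and −4.62 without Chiquitita replicate 1). Contig_6377 gave 487.3, 50.71 and 66.7 in Chiquitita, against 1028, 684.5 and 631.2 in Arbosana (−2.69 ± 0.68, adjusted p = 0.0328). That call was lost without Chiquitita replicate 2 or 3 or any 1 Arbosana array (adjusted p between 0.0575 and 0.108). Its difference was −3.71 without Chiquitita replicate 1 (adjusted p = 0.000247) and −2.08 without Chiquitita replicate 2. In ChiCa, Contig_39396 gave 144.6, 125.6 and 153.4, against 599.9, 572.0 and 540.1 in Arbosana (−2.02 ± 0.40, adjusted p = 0.0165, lost without ChiCa replicate 1 or 2 at 0.0736 and 0.0647). Contig_29459 gave 465.2, 684.4 and 181.8 in ChiCa, against 1201, 2269 and 1451 in Arbosana (−2.03 ± 0.52, adjusted p = 0.0401, lost without ChiCa replicate 1 or 3 or any 1 Arbosana array).

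ChiCa and its parent Chiquitita differed in none of the 150 contigs by limma, and 0% of all contigs were called in either direction. At an unadjusted p under 0.05 there were 31 of the 150 (20.7%), against 1871 of all contigs (5%), and the methods' t-test with its fold limit called 10 (6.67%, against 0.75% of all contigs). Without Chiquitita replicate 1, 7 were called (4.67%, against 0.529% of all contigs in that fit), 6 higher in ChiCa and 1 lower. Contig_31969 was then 7.33 ± 0.42 higher in ChiCa (adjusted p = 5.25e-05), at 3873, 2551 and 5090 in ChiCa against the 16.28 and 32.26 of Chiquitita replicates 2 and 3. The other 5 higher contigs were Contig_46397, Contig_6377, Contig_27556, Contig_23377 and Contig_25669, and the lower one was Contig_42593, all named after that array was left out.

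Complex branching and Simple branching differed in 4 contigs, all lower in Complex branching, which was the case for 0.0374% of all contigs. Contig_32108 gave 63.93, 48.07 and 105.0 in Complex branching, against 5577, 2572 and 3746 in Simple branching (−5.78 ± 0.35, limma adjusted p = 0.000109). Contig_23128 gave 87.79, 105.1 and 140.0 in Complex branching, against 2427, 2690 and 4541 in Simple branching (−4.83 ± 0.28, adjusted p = 0.000109). In both contigs Arbosana was as low as Complex branching, at 40.36, 64.01 and 192.7 for Contig_32108 and 94.52, 31.36 and 57.09 for Contig_23128. Chiquitita was as high as Simple branching, at 3402, 3407 and 3884 for the first of them and 3293, 5192 and 2765 for the second.

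Contig_1973, named because so few contigs were called, had the same order, with 84.47, 110.1 and 71.33 in Complex branching and 1072, 837.5 and 2384 in Simple branching (−3.89, adjusted p = 0.00661), 163.0, 126.0 and 112.8 in Arbosana and 1290, 2676 and 1559 in Chiquitita. For these 3 contigs ChiCa was also high, with arrays between 1307 and 4717, so that among the pools of the second cross only Complex branching matched Arbosana. Contig_60697 fell by 1.76 (adjusted p = 0.0472). Without Simple branching replicate 3 there were 9 calls (6%, against 0.358% of all contigs in that fit), 4 higher and 5 lower in Complex branching, including all 4 above. The added calls were Contig_41913, Contig_50195, Contig_23848 and Contig_37909 (higher) and Contig_62522 (lower). Without Complex branching replicate 1 or 3 there were 2.

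Dormant shoot tips of Picual were on the Picual side for 79 contigs, on the Arbequina side for 23 and between for 48. The dormant mean was below the active one for 109 contigs and above it for 41, with 56 at least 2-fold below and 4 at least 2-fold above. The median difference was −0.67 on the log2 scale, against 0.00 over all contigs, of which 13.53% were at least 2-fold below and 6.99% at least 2-fold above. The active arrays chose the contigs for high values, so this shift carries no test. The contigs lowest in dormancy were Contig_37909, Contig_49052 and Contig_66239. Contig_37909 gave 94.96, 34.66 and 19.72 in dormant Picual, against 1373, 868.0 and 1010 in active Picual. Contig_66239 gave 111.4, 188.7 and 296.8 in dormant Picual, against 2634, 3068 and 2074 in active Picual. In these contigs dormant Picual was as low as Arbequina, which gave 139.8, 58.78 and 134.3 for Contig_37909 and 259.7, 119.6 and 359.4 for Contig_66239. The contigs furthest above the active level were Contig_15340 (1088, 665.7 and 618.8 in dormant Picual, against 242.5, 261.5 and 155.5 in active Picual), Contig_39396 and Contig_48717.

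The dormant arrays took no part in the choice and were tested against groups that also took no part. They are of the same cultivar as the active arrays that were chosen as high, however, so the choice itself favours higher calls. Dormant Picual was called higher than Arbosana in 67 contigs (44.7%, against 5.76% of all contigs) and lower in 6 (4%, against 7.63%). It was called higher than Chiquitita in 38 (25.3%, against 5.73%) and lower in 19 (12.7%, against 11.2%, which is close to it). Dormancy and cultivar differ together in both comparisons and cannot be told apart. The median difference was 1.17 from Arbosana and 0.31 from Chiquitita, beside 0.03 and −0.04 over all contigs. Without Chiquitita replicate 1, 42 contigs were called higher and 17 lower than in Chiquitita (14% of all contigs called in either direction), and 65 higher and 7 lower than in Arbosana (12.3% of all contigs).

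Contig_19725 gave 6549, 5297 and 7068 in dormant Picual, against 15.89, 14.73 and 37.55 in Arbosana (8.24 ± 0.37, limma adjusted p = 5.36e-06). Contig_23128 gave 3490, 5853 and 5014 in dormant Picual, against 94.52, 31.36 and 57.09 in Arbosana (6.40 ± 0.43, adjusted p = 4.14e-05). Against Chiquitita the widest gap was in Contig_59827, with 5300, 7110 and 6864 in dormant Picual and 351.0, 51.99 and 46.22 in Chiquitita (6.08 ± 0.65, adjusted p = 0.00039, and 7.02 without Chiquitita replicate 1). Contig_39396 gave 2455, 4501 and 4065 in dormant Picual and 222.0, 60.79 and 82.91 in Chiquitita (5.10 ± 0.45, adjusted p = 0.000172). In both contigs dormant Picual stood above active Picual on every array.

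Lower in dormant Picual were Contig_66239, with 111.4, 188.7 and 296.8 in dormant Picual and 4527, 2013 and 3677 in Chiquitita (−4.13 ± 0.71, limma adjusted p = 0.00344), and Contig_37909, with 94.96, 34.66 and 19.72 in dormant Picual and 156.2, 2641 and 2592 in Chiquitita (−4.67 ± 1.00, adjusted p = 0.0105). The difference of Contig_37909 was −6.02 without Chiquitita replicate 1, −3.98 without Chiquitita replicate 2 and −5.29 without dormant Picual replicate 1. Without Chiquitita replicate 3 it was −4.00 and no longer called (adjusted p = 0.0502). Against Arbosana, Contig_26679 gave 87.5, 316.1 and 691.2 in dormant Picual and 2616, 3393 and 2176 in Arbosana (−3.33 ± 0.66, adjusted p = 0.00878). This difference was −2.52 without dormant Picual replicate 1 and −4.01 without dormant Picual replicate 3, and both fits kept the call. Contig_29459 gave 376.3, 824.8 and 173.3 in dormant Picual and 1201, 2269 and 1451 in Arbosana (−2.07 ± 0.57, adjusted p = 0.0383). The last of these calls was lost without dormant Picual replicate 1 or 3 or any 1 Arbosana array (adjusted p between 0.0642 and 0.137).

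Contig_35467, the putative SVP ortholog that was set aside, gave 2384, 2011 and 1911 in Chiquitita, 630.6, 423.2 and 199.2 in Arbosana, 2538, 1477 and 1592 in active Picual and 58.14, 88.27 and 37.45 in Arbequina. Its arrays in all pools and in dormant Picual lay between 1315 and 4375. Arbosana thus lay between the other cultivars and Arbequina for this contig.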

How the data were processed

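RNA of shoot tips was hybridised in 1 colour to a NimbleGen array of olive contigs. Per the labels, the authors normalized the arrays together with RMA, whose version is not given in the sources used here, and deposited intensity values on a linear scale. A second deposited table holds 36 columns under array numbers with no key to samples, and it was not used here. Log2 was taken of the intensities with no filter, and the rule was applied to them. The members, the lists and the comparisons were chosen with earlier results of these data known. Depth does not apply to arrays, and 3 arrays per group limit the precision.

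Each comparison was fitted with limma 3.58.1 (lmFit and eBayes, R 4.3.3) on 9 arrays of 3 related groups, without a replicate block, over all 37449 contigs. The p-values were adjusted by Benjamini-Hochberg over all of them, and calls needed an adjusted p under 0.05 and at least a 2-fold change. Levels, positions and figures were computed with Python 3.11.15, numpy 2.4.6, pandas 2.3.3 and matplotlib 3.10.9. The fits were tested on simulated data. Contigs are named by rule, namely the 10 largest scores, those next to the limit, up to 2 called rises and 2 called falls per comparison with no overlap of arrays, the 3 highest and 3 lowest Chiquitita positions, up to 3 on 1 side in all 9 groups, and the 3 furthest below and 3 furthest above in dormancy. Others are marked in the text. Only between Chiquitita and LILe did deviations of equal replicate number correlate above 0.1 in all 3 pairs, at 0.262, 0.603 and 0.739. Even there, not every array correlated best with its own number. A pairing in that comparison would come from the data and not from the labels. Alternatives were the samples in the fit, array weights (gene by gene), a replicate block, intensity trend and robust variances, quantile normalization, median centring, leaving out the lowest 25% of contigs, no fold minimum, the methods' t-test, linear positions, other limits, 75 or 300 contigs, and each array left out in turn.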

Additional observations from a re-analysis of the deposited data

How the results depend on the processing

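None of the differences named by rule as called rises or falls reversed under any alternative run. Other differences of named contigs were not checked in this way. The counts of called contigs in this section are given without a share of all contigs, except those of the methods' t-test. Where no share is given here or above, a higher or lower count cannot be read as particular to the chosen contigs. Array weights gave 33 for SmaD against LarD, 4 for SILe against LILe, and 20, 34, 39 and 60 for Chiquitita against SILe, LILe, SmaD and LarD. With only the 2 groups compared, these first 4 counts were 0, 2, 1 and 8. One fit over all 36 arrays gave 7 for SILe against LILe, 35, 22 and 29 for Chiquitita against SILe, LILe and SmaD, and 1 for ChiCa against Chiquitita. Trend and robust variances gave 2 for Chiquitita against LILe, quantile normalization 2 for SILe against LILe, and leaving out the lowest 25% of contigs 0 for SmaD against LarD. The methods' t-test (unadjusted p, with the fold limit) gave 18 for SmaD against LarD (2.71% of all contigs) and 22 for SILe against LILe (0.681%). For Chiquitita against SILe, LILe and SmaD it gave 30, 35 and 38 (2.34%, 3.35% and 4.3%). It gave 10 for ChiCa against Chiquitita (0.75%) and 9 for Complex against Simple branching (1.04%). After Benjamini-Hochberg adjustment it called 1 for Chiquitita against SmaD (5 of all contigs) and 17 for ChiCa against Arbosana (472 of all contigs). It then called 11 and 26 for dormant Picual against Chiquitita and Arbosana (746 and 613 of all contigs), and 0 in the other 8 comparisons. With SmaD replicate 1 alone, assumed to vary like the other groups, the counts were 0 against LarD and 4 for Chiquitita against SmaD. Without the pair of doubted arrays, counts were 2 for SILe against LILe, 7 and 36 for Chiquitita against LILe and SmaD, 7 for ChiCa against Chiquitita and 9 for Complex against Simple branching, and the Chiquitita position was 0.693. The cause of these shifts was not tested.

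With the replicate number as a block, counts were 0 for SmaD against LarD, 0 for SILe against LILe, 4 and 2 for Chiquitita against SILe and LILe, and 2 for Complex against Simple branching. The block moved no other count by over 1.5 times. Deviations of equal number also correlated at 0.464 and 0.488 in 2 pairs of SmaD and LarD, and at 0.083 in the other. In no comparison did every array correlate best with its own number. Contig_22706 was not called between SILe and LILe with the block (adjusted p = 0.101), nor Contig_26788 between SmaD and LarD (adjusted p = 0.0982).

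With single arrays of the 2 groups compared left out, counts ranged from 0 to 1 for SmaD against LarD, 1 to 2 for SILe against LILe, 3 to 11 for Chiquitita against SILe, 0 to 7 against LILe, 11 to 36 against SmaD, 17 to 42 against LarD and 51 to 66 against Arbosana, 25 to 46 for ChiCa against Arbosana, 0 to 7 against Chiquitita, 2 to 9 for Complex against Simple branching, and 44 to 59 and 55 to 65 for dormant Picual against Chiquitita and Arbosana. Arrays of the other group in a fit were not left out in turn, apart from Chiquitita replicate 1, without which ChiCa and dormant Picual gave 57 and 72 against Arbosana. Median positions ranged from 0.646 to 0.693 in Chiquitita, 0.643 to 0.699 in SILe, 0.748 to 0.806 in LILe, 0.730 to 0.777 in SmaD, 0.713 to 0.736 in LarD, 0.745 to 0.820 in dormant Picual, 0.182 to 0.220 in Arbosana, 0.589 to 0.629 in ChiCa, 0.556 to 0.616 in Complex branching and 0.601 to 0.631 in Simple branching. The contigs on the Picual side in all 9 groups ranged from 2 to 5, those on the Arbequina side in all 9 from 1 to 4 (4 without active Picual replicate 1 or Arbequina replicate 2, and 1 without SmaD replicate 1 or 3), and those with no group there from 44 to 51.

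On linear intensities, positions were 0.468 in Chiquitita, 0.454 in SILe, 0.586 in LILe, 0.510 in SmaD, 0.488 in LarD, 0.593 in dormant Picual, 0.062 in Arbosana, 0.369 in ChiCa, 0.344 in Complex and 0.419 in Simple branching, since a linear scale places the midpoint higher, and the 3 pattern counts (Picual side in all 9, Arbequina side in all 9, no group on the Arbequina side) were 1, 6 and 24. Quantile normalization gave 0.631 in Chiquitita, 0.747 in LarD, 0.836 in dormant Picual, 0.243 in Arbosana and 0.591 in ChiCa. With 75 contigs, positions were 0.780 in Chiquitita, 0.774 in LarD, 0.863 in dormant Picual, 0.668 in ChiCa, 0.672 in Complex and 0.722 in Simple branching, and 0 and 26 contigs held the last 2 patterns. With 300, they were 0.676 in Chiquitita, 0.708 in SmaD, 0.663 in LarD and 0.724 in dormant Picual, with pattern counts of 5, 4 and 93. Limits of 0.4 and 0.6 gave 11, 4 and 26. The rule itself kept 148 of its 150 contigs after median centring, 145 after quantile normalization, 123 on differences of means and 111 without the lowest 25% of contigs. Signal over background was not examined, so low intensities near those of Arbequina may not be ordered.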
